A study of Drosophila melanogaster with 2 samples.

Results

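The 7 genes described here, tral, me31B, Edc3, pcm, DCP2, Ge-1 and Patr-1, encode proteins of the mRNA decapping machinery and of the repression complex built around Trailer hitch. They are 7 of the 13986 annotated protein-coding genes of Drosophila melanogaster, found by their Ensembl symbols. They were chosen by name with the signal and rank of some of their peaks in these data already known. Every peak value of these genes is therefore given as a description, with no test. Binding of ZIPIC, a zinc-finger architectural protein also named CG7928, was measured by chromatin immunoprecipitation and sequencing (ChIP-seq). The chromatin came from whole embryos, pooled over both sexes and aged 0 to 24 h, of 1 transgenic line that makes ZIPIC with GFP at its C terminus, and an antibody against GFP was used. The design has 1 group of 2 biological replicates, numbered 2 and 3, and no untagged embryos and no input were analysed here. The promoter that drives the fusion is not given in the sources used here. Since embryos of all these ages and all their cells were pooled, a site bound in few cells and a site bound weakly in many cannot be told apart.

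An mRNA in the cytoplasm is protected at its 5' end by a cap, and decapping commits it to decay. DCP2 is the enzyme that removes the cap. Ge-1, Edc3 and Patr-1 help it to act, and the exoribonuclease encoded by pcm (pacman) then degrades the exposed RNA from its 5' end. Me31B, a DEAD-box RNA helicase, and Tral (Trailer hitch), an LSm-domain protein, form a complex that keeps mRNAs silent, best known from the fly oocyte and early embryo. These proteins gather in cytoplasmic granules called P bodies. The proteins themselves were not measured; the data concern what lies on the DNA at their genes.

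Of the 7 genes, tral, Ge-1, DCP2 and Edc3 had an optimal peak whose summit lay within 500 bp of an annotated start, and me31B, Patr-1 and pcm did not. Optimal peaks are the authors' final list of 2971, made with an irreproducible discovery rate procedure from candidate lists of 30000 entries each for the pooled replicates, replicate 2 and replicate 3. The sequences under the 4 optimal summits are shown because the sites at tral and Ge-1 carry a ZIPIC-type sequence and those at DCP2 and Edc3 do not. Each is the plus strand of dm6, 5' to 3', up to 100 bp on either side of the summit with annotated UTRs left out, and capitals mark AGGGNTG, a short form of the ZIPIC site. The stretches are chr3L:12514816-12514934 for tral, with the summit at base 19, chr2L:11100889-11100962 for Ge-1 (base 22), chr3L:15826424-15826609 for DCP2 (base 86) and chr3L:17529910-17530080 for Edc3 (base 101).
tral: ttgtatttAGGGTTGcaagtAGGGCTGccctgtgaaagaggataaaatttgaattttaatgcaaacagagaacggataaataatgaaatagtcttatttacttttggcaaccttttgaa
Ge-1: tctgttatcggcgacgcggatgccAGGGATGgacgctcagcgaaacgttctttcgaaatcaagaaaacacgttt
DCP2: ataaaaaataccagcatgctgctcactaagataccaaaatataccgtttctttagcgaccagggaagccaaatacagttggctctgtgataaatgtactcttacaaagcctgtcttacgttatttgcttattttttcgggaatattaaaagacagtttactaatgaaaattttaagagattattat
Edc3: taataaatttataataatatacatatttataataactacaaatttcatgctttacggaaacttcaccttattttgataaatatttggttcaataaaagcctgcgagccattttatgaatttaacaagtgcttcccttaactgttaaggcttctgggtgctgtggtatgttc

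The 4 of 7 genes with an optimal peak stand beside 18.3% of all protein-coding genes (2561 of 13986), and nothing is read from this difference, because known peaks entered the choice of the genes. The peaks differed widely in strength. The deposited signal value, for which no scale is stated in the sources used here, was 5796 at tral, 1964 at Ge-1, 1010.5 at DCP2 and 183 at Edc3. The median over these 4 genes was 1487, and that over all 2561 protein-coding genes with an optimal peak at a start was 249. The tral peak was stronger than that of 99.8% of these 2561 genes, the Ge-1 peak than that of 91.1%, the DCP2 peak than that of 79.7% and the Edc3 peak than that of 31.9%. Thus 3 of the 4 lay in the upper part of the range and Edc3 in the lower part. The deposited −log10 q-value was at the list's maximum of 3.65 for all 4. In replicate 2 it was 1.83 at Edc3, below that list's maximum of 3.41, which the peaks at tral, Ge-1 and DCP2 reached.

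**Figure D1:**
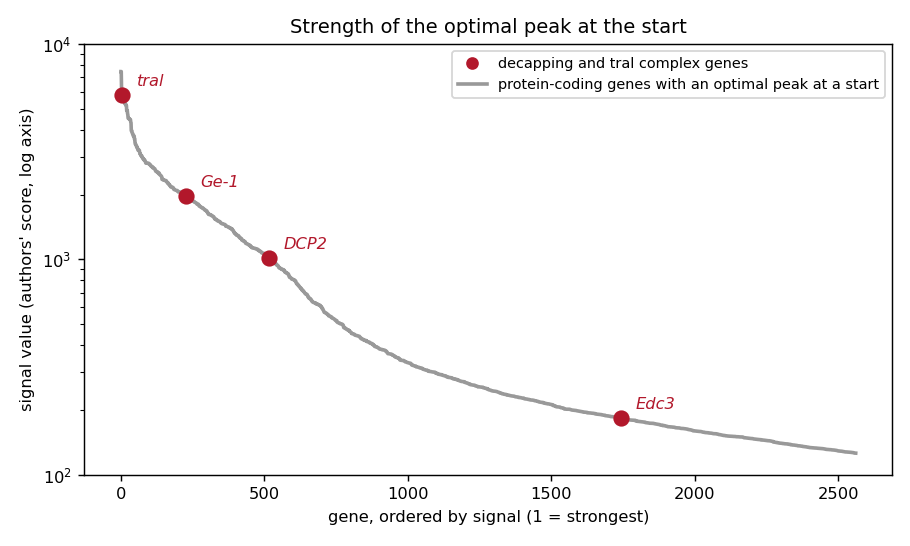
Signal value (log axis) of the strongest optimal peak at the start of each of the 2561 protein-coding genes that have one, ordered from strongest to weakest (grey line), with the decapping and tral complex genes as red points. The points for tral, Ge-1 and DCP2 lie on the steep part of the curve and Edc3 on its flat part.

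At tral, which codes for the scaffold of the Me31B complex, the summit lay 225 bp upstream of the only annotated start (FBgn0041775, 3L: 12515059 to 12520954, plus strand). The peak covered 3L: 12514570 to 12515153 and ranked 4 of the 30000 pooled entries. Its signal was 3197 in replicate 2 (rank 4) and 2589 in replicate 3 (rank 5), a mean of 2893 ± 429.8 (SD, n = 2). Both replicates thus held it among their 5 strongest entries, with summits 1 bp and 0 bp from the pooled one. The peak was shared: the start of sti, the citron kinase gene of cytokinesis, lay 19 bp from the summit, nearer than tral, and that of lncRNA:CR45168 lay 175 bp away. The summit itself fell in an exon of this lncRNA, between the divergent starts of sti and tral, which are 243 bp apart. Farther along, the 3' UTR of tral held a pooled entry of signal 46.8 at rank 15836, while replicate 2 listed nothing in the gene and replicate 3 listed entries of 26.9 and 19.2 elsewhere in the same UTR and one of 21.6 in coding sequence.

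At me31B, the gene of the helicase partner of Tral, no optimal peak lay near (FBgn0004419, 2L: 10239341 to 10242172, plus strand, 2 starts). The pooled list held 1 entry, 320 bp upstream of the first start in intergenic DNA, with a signal of 38.3 and rank 24242. Replicate 2 listed no entry closer than 40312 bp to a start. Replicate 3 listed an intronic entry 364 bp downstream of the second start (signal 35.9, rank 10061) and one in coding sequence (signal 22.2, rank 23223). No entry of replicate 3 lay where the pooled entry was. The tral and me31B genes, whose products act in 1 complex, thus had the highest and the lowest signal of the 6 genes with a pooled entry at a start.

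Ge-1 encodes the large scaffold protein of the decapping complex. Its summit lay 22 bp upstream of its start, in intergenic DNA (FBgn0283682, 2L: 11095150 to 11100888, minus strand; peak 2L: 11100668 to 11101140, rank 142). The signal was 981 in replicate 2 (rank 162) and 963 in replicate 3 (rank 128), a mean of 972 ± 12.4 (SD, n = 2). By their ratio (0.982, replicate 3 to replicate 2) these are the closest replicate values among the 4 peaks. The SD was smaller at the weaker Edc3 peak (10.5). The summits in the replicates were 5 and 2 bp from the pooled one. No start of another gene lay within 500 bp, and of the 4 peaks only this one had its own gene alone in reach. The gene just upstream, Reps, points the same way and ends 74 bp before the start of Ge-1. In the gene body the pooled list added an intronic entry of signal 36.4 at rank 26851, and replicate 2 an entry in coding sequence of 27.0 at rank 20334.

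Edc3 encodes an enhancer of decapping with an LSm domain. Its optimal peak was weak (FBgn0036735, 3L: 17525333 to 17529861, minus strand; peak 3L: 17529805 to 17530214, rank 1769). Replicate 2 gave it 77.9 (rank 1908) and replicate 3 gave it 92.7 (rank 1935), a mean of 85.3 ± 10.5 (SD, n = 2). It was nevertheless among the 2971 strongest entries of both replicates, with summits 10 and 15 bp from the pooled one. The summit lay 149 bp upstream of the start of Edc3, against 71 bp from that of its neighbour Nedd4, a ubiquitin ligase gene, so here too the nearer start was the neighbour's. The starts of Nedd4 and Edc3 face away from each other across 219 bp, and the summit fell in an exon of lncRNA:CR45165, whose start was 192 bp away. A weaker entry lay in the coding sequence of Edc3, 212 bp from the start of snoRNA:Edc3-a, with a signal of 61.5 in the pooled list (rank 9046) and 36.1 in replicate 3 (rank 9951). Replicate 2 listed none there.

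Patr-1 codes for the fly member of the PAT1 family, which in yeast links deadenylated mRNA to decapping. It had only weak entries (FBgn0266053, 3R: 17043564 to 17048421, plus strand). The pooled list held 1 entry 175 bp upstream of the start (signal 65.0, rank 8174) and 1 in the 5' UTR 26 bp downstream (signal 45.0, rank 17231). Replicate 3 listed entries of 41.5 (rank 7723), 325 bp upstream, and 23.3 (rank 21510), 73 bp downstream. Replicate 2 listed no entry at the start. The nearest optimal summit was 2921 bp from the start of Patr-1, 39 bp from a start of the tRNA methyltransferase gene Trm7-32, with a signal of 1069.9. The start of bdwf, facing away from Patr-1, lies across a gap of 427 bp.

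DCP2, the decapping enzyme gene, had the most entries of the 7 genes in the pooled list and in replicate 3 (FBgn0036534, 3L: 15818734 to 15826423, minus strand, 2 starts). It is also the longest of the 7, at 7690 bp, and entries were counted over the gene body. Its optimal peak covered 3L: 15826334 to 15826668 with an intergenic summit 86 bp upstream of the upstream start, at rank 371. The signal was 558 in replicate 2 (rank 346) and 455 in replicate 3 (rank 393), a mean of 506 ± 72.8 (SD, n = 2). Its summits there were 1 and 10 bp from the pooled one. A second entry lay beside it, nearer to dbo, a kelch-domain protein gene whose start faces away from DCP2 across 464 bp. This entry had a summit 288 bp from the DCP2 start and 177 bp from that of dbo. Its signal of 115.05 (rank 3393) left it outside the optimal list. Replicate 3 ranked the same entry higher (signal 104.8, rank 1592). Replicate 2 listed no entry covering that summit. A further entry lay in coding sequence 424 bp downstream of the second DCP2 start, with a signal of 64.6 in the pooled list (rank 8262) and 44.3 in replicate 3 (rank 6856). Fainter entries in the gene body had signals of 36.0 in the pooled list and of 26.1 and 21.7 in replicate 3, and replicate 2 listed none there.

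At pcm, which encodes the XRN1-type exoribonuclease, the lists disagreed (FBgn0020261, X: 19485759 to 19492011, minus strand). Replicate 3 held an intergenic entry 287 bp upstream of the start with a signal of 82.3 and rank 2393, within its strongest 2971. Neither the pooled list nor replicate 2 held any entry at this start. The nearest pooled summit was 4401 bp away, at Pfrx, and the nearest summit of replicate 2 was 29404 bp away. The start of ND-18, a subunit gene of mitochondrial complex I, lay 123 bp from the replicate 3 summit, closer than pcm, and faces away from pcm across 409 bp. Such sites were rare: of 2808 protein-coding genes with one of the strongest entries of replicate 3 at a start, 537 had no optimal peak there, and 71 of those had no pooled or replicate 2 entry either.

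**Figure D2:**
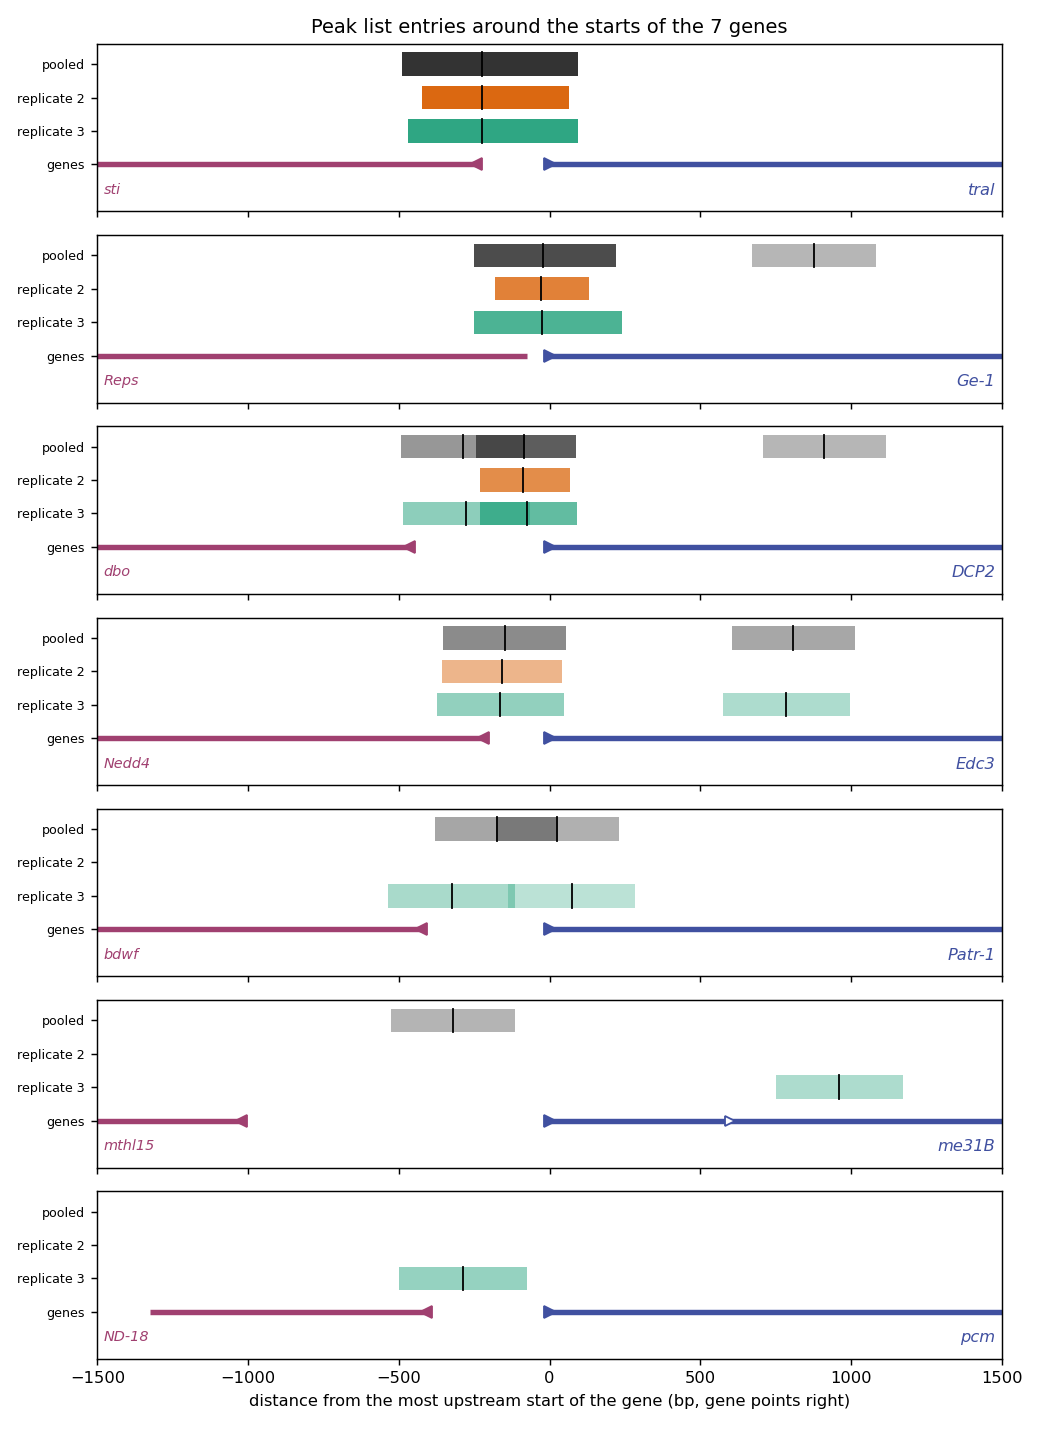
Entries of the pooled list (black), replicate 2 (orange) and replicate 3 (green) around the most upstream start of each gene, as distance in bp with the gene drawn pointing right in blue and the nearest upstream protein-coding gene in purple; darker bars have higher signal (overlapping bars add up), vertical lines mark summits and the open triangle is the second start of me31B. At tral, Ge-1, DCP2 and Edc3 the optimal summit and its counterparts in the replicates stand within 15 bp of each other, and at Patr-1, me31B and pcm replicate 2 has no bar; noncoding RNA genes are not drawn.

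At the 4 genes with an optimal peak the replicates ordered the signals alike, while at the start of pcm only replicate 3 held an entry. All 4 optimal peaks were found in both replicates, meaning that an entry among the 2971 strongest of each replicate held the pooled summit. Among all 1966 optimal peaks at protein-coding starts this was so for 60.0% (1180). Nothing is read from this difference. The genes were chosen with some peaks known, the pooled list comes from the same replicates, and no share at matched strength was computed. The ratio of the signal in replicate 3 to that in replicate 2 was 0.810 at tral, 0.982 at Ge-1, 0.816 at DCP2 and 1.19 at Edc3. These ratios lay between the quartiles of the 1457 start peaks listed in both replicates, which were 0.771 and 1.21 around a median of 0.942. The pooled signal came close to the sum of both replicates: 5796 and 5786 at tral, 1964 and 1944 at Ge-1, 1010.5 and 1013 at DCP2, and 183 and 171 at Edc3.

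By the strongest 2971 entries of each replicate alone, replicate 2 held an entry at the starts of tral, Ge-1, DCP2 and Edc3 and replicate 3 at these and pcm. The shares of all protein-coding genes were 13.6% for replicate 2 and 20.1% for replicate 3. With every candidate counted, 6 of the 7 genes had an entry at a start in the pooled list, 4 in replicate 2 and 7 in replicate 3. Over all protein-coding genes these shares were 50.6%, 31.7% and 56.3%. Replicate 3 therefore listed entries at starts more widely than replicate 2, both at these genes and over all genes. The pooled candidates were deposited as peaks and background together. Their strongest entries at the starts of me31B and Patr-1 had −log10 q-values of 0.140 and 0.716, against 3.65 at the optimal peaks. Pooled entries in gene bodies away from the starts had 0.117 to 0.610. In replicate 3 the strongest start entry had 1.47 at me31B, 2.02 at Patr-1 and that list's maximum of 3.89 at pcm.

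**Figure D3:**
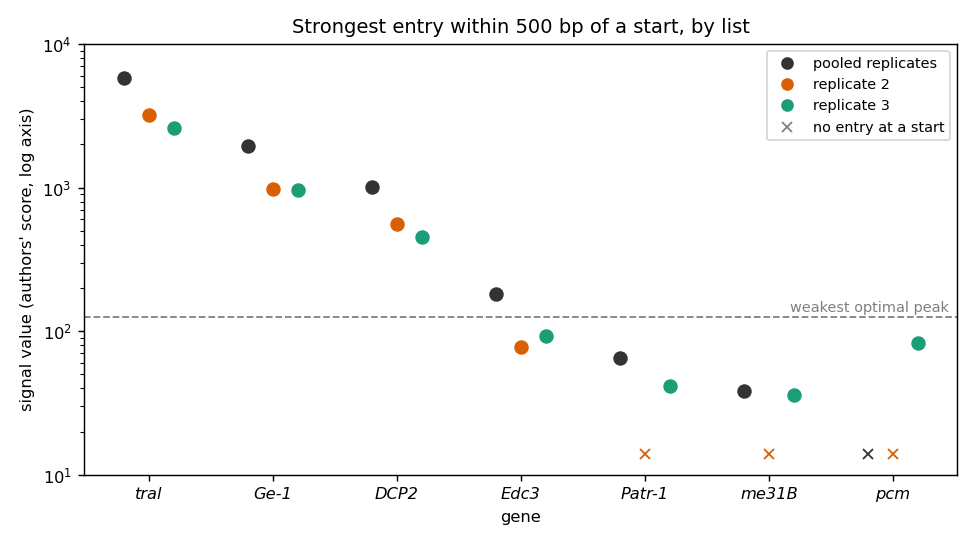
Signal value (log axis) of the strongest entry at a start of each gene in the pooled list (black), replicate 2 (orange) and replicate 3 (green); crosses at the bottom mark lists with no entry and carry no value, and the dashed line is the weakest optimal peak of the pooled list, at 126. Both replicates have a point at tral, Ge-1, DCP2 and Edc3, and only replicate 3 has one at Patr-1, me31B and pcm.

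The weakest optimal peak had a signal of 126 and the strongest entry outside the list also 126, so no gap separates the 2 lists. Of the entries at these genes, the one just inside was that of Edc3 at 183, and those just outside were the second entry at DCP2 at 115.05 and the upstream entry at Patr-1 at 65.0. Including gene bodies, the 7 genes held 13 pooled entries, 5 of replicate 2 and 19 of replicate 3. Only 4 of the pooled, 4 of the replicate 2 and 6 of the replicate 3 entries ranked within the first 2971. Weak entries thus made up 13 of the 19 in replicate 3 and 1 of the 5 in replicate 2. The 19 entries of replicate 3 were 3.80 times the 5 of replicate 2 at these genes, against 1.25 times over all protein-coding genes (25679 and 20549 entries). The part of read depth or background in this was not tested, and read depth is unknown because the lists hold no counts. Peak widths of 584 bp at tral and 473 bp at Ge-1 were above the 410 bp that 58.3% of optimal peaks share, the peak at Edc3 had exactly this width, and that at DCP2 was narrower at 335 bp.

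The letters under the summits differed between the genes. In a window of 100 bp centred on the summit, AGGGNTG was sought on both strands. It occurred at tral and Ge-1, 2 of the 4 genes with an optimal peak, and at 21.9% of the 1966 optimal peaks at protein-coding starts (430) and 2.86% of the 5740 weaker pooled entries at such starts. At tral it occurred 3 times on the plus strand, with centres 40 and 7 bp before the summit and 5 bp after it along that strand. The last 2 are the copies in capitals above, AGGGTTG and AGGGCTG, and the first, AGGGATG, lies in the 5' UTR of sti. At Ge-1 a single copy, AGGGATG, had its centre 6 bp from the summit. The full 8-letter core, CAGGGCTG, which contains AGGGNTG, was in none of the 4 windows and in 9.66% of all start peaks.

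The DCP2 and Edc3 windows held no AGGGNTG, and a window of 200 bp gave none either. Absence of these letters from a window says nothing on whether ZIPIC binds there. Among the 50 start peaks on each side of it in rank, 50% held AGGGNTG around DCP2 (50 of 100) and 10% around Edc3 (10 of 100). Around Ge-1 it was 78% (78 of 100), and around tral, where only 3 start peaks were stronger, 71.7% (38 of 53). Lack of the letters was therefore common at the strength of Edc3 and as common as their presence at that of DCP2. The strongest pooled entries at me31B and Patr-1 and the replicate 3 entry at pcm did not hold them.

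Of the other promoter strings sought, only CGATA occurred in the 4 optimal windows. With so few windows, nothing is read from this beside the shares over all start peaks. CGATA, the string recognised by the insulator factor BEAF-32, was present at Ge-1 only, 14 bp from the summit on the minus strand, and in 29.0% of all start peaks. TATCGATA, the element of the promoter factor DREF, which contains CGATA, was in none of the 4 windows and in 5.85% of start peaks. GGTCACACT, bound by M1BP, was likewise in none and in 2.03% of start peaks, and GAGAG, bound by GAGA factor, in none and in 8.44%. TATAAA was in none of the 4 and in 15.9% of start peaks; at Edc3 it lay outside the 100 bp window, 72 and 90 bp from the summit on the minus strand, and at the weak Patr-1 entry 5 bp from the summit. The windows had a GC content of 43% at tral, 55% at Ge-1, 36% at DCP2 and 33% at Edc3, and the quartiles of all start peaks were 30% and 46% around a median of 38%.

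Head-to-head arrangement, a feature of the annotation and not of the peaks, was common among these genes. Of the 7, 5 had a protein-coding neighbour facing away within 1000 bp of the start: tral with sti, Edc3 with Nedd4, pcm with ND-18, DCP2 with dbo and Patr-1 with bdwf. This share of 71.4% stands beside 33.3% of all protein-coding genes (4652 of 13986) and 60.3% of those with an optimal peak at a start. For me31B the divergent neighbour mthl15, a methuselah-like receptor gene, lies at 1023 bp, just beyond that limit. Only Ge-1 follows a gene on the same strand. The head-to-head pairs included the strongest peak (tral with sti), the weakest of the 4 optimal ones (Edc3 with Nedd4), an entry of replicate 3 alone (pcm with ND-18) and weak candidates (Patr-1 with bdwf). A start of another gene lay within 500 bp of the summit at 3 of the 4 optimal peaks, those of tral, DCP2 and Edc3, and at 46.1% of all start peaks. At tral and Edc3 this other start was the nearer one, and at DCP2 the gene's own start was nearer (86 bp, against 379 bp for dbo). All 4 optimal summits lay upstream of the start, by a median of 117.5 bp, and over all 2561 genes the median distance on either side was 118 bp.

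The wider mRNA decay and repression machinery was examined with 47 further symbols in 6 lists, of which 44 matched the annotation. An optimal peak lay at a start of 20 of these 44 genes (45.5%), beside the 18.3% of all protein-coding genes. By the strongest 2971 entries of replicate 2 alone, that is without replicate 3, the count was 13, and by those of replicate 3 alone it was 22. The shares of all protein-coding genes were 13.6% and 20.1% by these entries. The median signal of the 20 was 370, against 249 over all 2561 genes. Of the 20, 12 were found in both replicates, beside 60.0% of all 1966 optimal peaks at protein-coding starts. At 7 of the 20 the start of another gene was nearer, and no share over all start peaks was computed for this. The lists were chosen with earlier results of these data known, and no test was made.

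The other decapping genes that could be matched carried no optimal peak (0 of 5, from 8 symbols). LSm2, LSm5 and LSm6 matched no gene of the annotation and were not examined. The matched genes, named here after their values were seen, are DCP1, the activator of DCP2, and LSm1, LSm3, LSm-4 and LSm7 of the LSm ring. The best pooled entries at DCP1, LSm1 and LSm7 ranked 3795, 3707 and 3486, beyond the 2971 of the optimal list, and LSm3 and LSm-4 had no pooled entry at a start. In the deadenylation list, whose enzymes shorten the poly(A) tail before decapping, 6 of 11 genes were bound by this rule. PAN3, a subunit of the PAN2-PAN3 deadenylase, led with a signal of 1729.9 (931 in replicate 2 and 792 in replicate 3). Pop2 and twin, the nucleases of the CCR4-NOT complex, had 500.5 and 470.2, Not3 426, PAN2 313 and Rga 213. PAN2 and Rga had no entry in replicate 2 at these summits. The start of CG32486 was nearer than that of PAN3, and the start of CG6928 nearer than that of Pop2.

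Among partners of the Tral complex and translational repressors 6 of 10 had an optimal peak. The strongest was at exu, which acts in mRNA localisation in the oocyte, at 3217 (1548 in replicate 2 and 1680.5 in replicate 3), with a start of galla-1 nearer to the summit. It was followed by bel, a DEAD-box helicase gene, at 983 and yps, a Y-box protein gene, at 458, both with the summit nearest to their own start. AGGGNTG lay in the window at exu, bel and yps but not at the other bound genes of this list, beside 21.9% of all start peaks. The other bound genes were weaker, with signals of 187 to 204. Among start peaks of similar rank the share was 78% around Ge-1 and 10% around Edc3, so 21.9% is not a share at matched strength. The part of strength was not tested. In the other lists Not3, PAN2, PAN3, Smg5, AGO1, Rrp40 and Rrp42 held AGGGNTG, and the remaining bound genes did not. The repressor gene cup and the cap-binding protein gene eIF4E1, whose products join Me31B and Tral in 1 complex, had no pooled entry at a start. These 2 were named after their values were seen.

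The exosome and Ski list, for decay from the 3' end, had 5 of 10, led by Rrp42 (2055), Rrp40 (1379.6) and Rrp6 (689), all found in both replicates, and tst at 266, without an entry in replicate 2. The start of Rrp6 lay 135 bp from its summit, and that of CG33331 was nearer at 75 bp. In nonsense-mediated decay 1 of 6 had a peak, Smg5, at 268. Both miRNA silencing genes listed had one, AGO1 at 315 and gw, named after its values were seen, at 165, and neither was found in both replicates. The start of AGO1 lay 89 bp from its summit, and a start of mRpL53 lay 81 bp from it. Each of the 5 lists other than decapping held at least 1 gene with an optimal peak, and no gene of these lists reached the signal of tral. With 5 matched decapping genes and a share of 18.3% over all protein-coding genes, nothing is read from the 0 there.

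**Figure D4:**
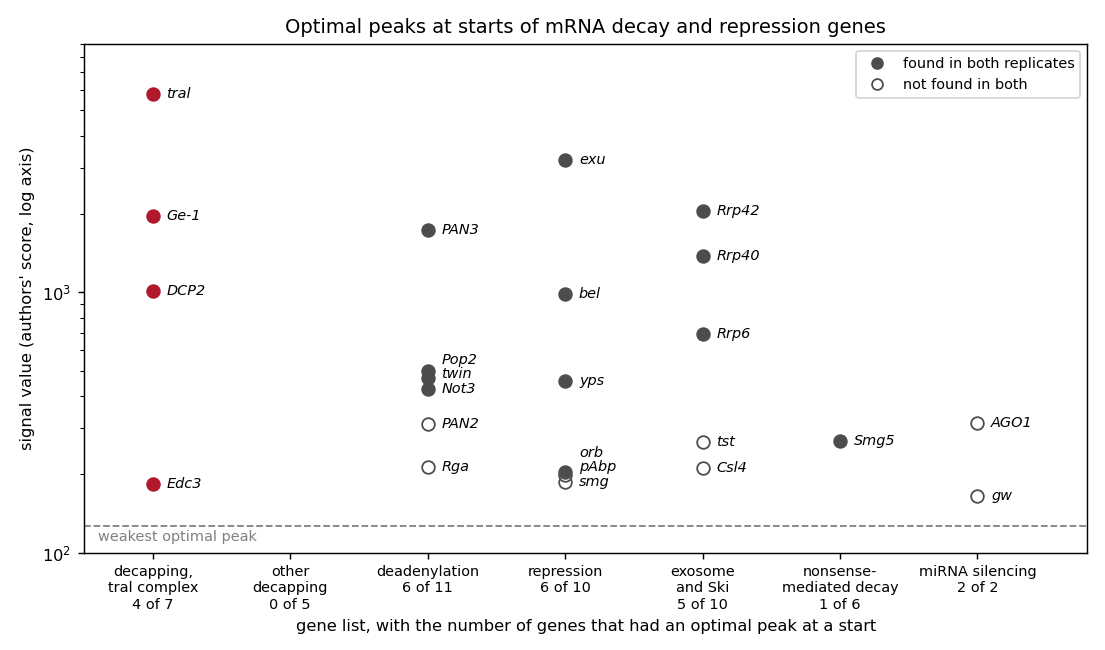
Signal value (log axis) of the optimal peak at the start of each gene that has one, for the decapping and tral complex genes (red) and for 6 further lists (dark grey), with the number of genes with a peak of the number matched under each list. Filled points mark peaks found in both replicates, open points the others, and the dashed line is the weakest optimal peak at 126. All 4 red points are found in both replicates, and the other matched decapping genes have no point.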

How the data were processed

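ChIP-seq of ZIPIC-GFP embryos gave peak lists for replicates 2 and 3 and for both pooled. Per the deposited file descriptions, the candidate lists were the input to an irreproducible discovery rate procedure that gave the optimal list; no aligner or peak caller is named in the sources used here. The deposited columns used were the authors' signal value (a score of unstated scale), the −log10 q-value and the summit offset. The 4 dm6 lists were used; dm3 lists were not analysed here. On testing, the optimal peaks were the 2971 strongest pooled entries. Read depth is unknown, since no counts are given.

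Summits were assigned to genes of Ensembl release 115 (BDGP 6.54) within 500 bp of any transcript start or in the gene body, with Python 3.11.15. Sequence came from the RefSeq genome of release 6, the dm6 build. Ranks follow signal. A replicate found a peak if an entry among its strongest 2971 held the pooled summit. Motif windows were 100 bp. The computation was tested on simulated data, and figures were drawn with matplotlib 3.10.9. No test was made: members and lists were chosen with earlier results of these data known. The rule for other named genes took those with a start within 500 bp of an optimal summit of the 7, and up to 15 decay genes with the highest optimal signal. Further neighbours, the genes beside the nearest peaks and the decay genes outside those 15 were named after their values were seen. Alternatives varied the reach, list, starts, replicates, overlap, window and motif.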

Additional observations from a re-analysis of the deposited data

How the results depend on the processing

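Of 34 alternative values of the counts, 31 stayed within 1.5 times. At counts this small, a change from 4 genes to 3 or 5 is within that limit. tral, Edc3, DCP2 and Ge-1 kept an optimal peak with a reach of 250 or 1000 bp and with the most upstream start only. That outcome was fixed in advance, because their summits lay 22 to 225 bp from the most upstream start. Without replicate 3 the same 4 had one of the strongest entries of replicate 2, and without replicate 2 pcm joined them by the strongest entries of replicate 3 (5 genes), and in the stronger part of the optimal list Edc3 dropped out (3 genes). Each of these 4 peaks was found in both replicates under every overlap rule tried, and 2 held AGGGNTG in windows of 50, 100 and 200 bp. The whole replicate lists and the 200 bp window could not lower these counts, since each contains the main setting. With the full core CAGGGCTG the count was 0. In the stronger part of the list 1514 protein-coding genes had a start peak, against 2561 in the whole list, by construction of that part. Leaving out each replicate in turn gave 13 (without replicate 3) and 22 (without replicate 2) further decay genes with a start peak, against 20. Over all protein-coding genes the counts were 1907 and 2808, against 2561. The cause was not tested. The signals at the 4 genes in 1 replicate were lower than in the pooled list, which comes close to the sum of both. Unknown depth limits how far missing weak entries can be read.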
